A study of Mus musculus with 4 samples.

Results

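The 10 genes described here are receptors of the EGF receptor family (Egfr, Erbb2 and Erbb3), ligands of that family (Areg, Ereg, Hbegf, Btc, Tgfa and Nrg1) and Lrig1, a regulator of its receptors. They were chosen by name from the 27514 genes listed in all of the gene tables. Their transcripts were followed in epithelial cells, fibroblasts and immune cells of mouse small intestinal adenomas that were profiled by single-cell RNA sequencing of transcript 3′ ends with the 10x Genomics platform. The study asked what happens in Apc-mutant adenomas when Lef1, a transcription factor of the Wnt pathway, is deleted. There were 2 groups of 2 libraries. Mice labelled ApcMin carried ApcMin/+ with Lef1 +/+, and mice labelled VApcMinL carried ApcMin/+ with Lef1 fl/fl and Villin-Cre. ApcMin is a truncating allele of the tumor suppressor gene Apc, so the adenomas of both groups arose in Apc-mutant mice and no normal tissue was compared. Villin-Cre recombines floxed alleles in the intestinal epithelium and not in fibroblasts or immune cells. All mice were labelled C57BL/6, male and 11 weeks old. Each library pooled several tumors of like size and location, dissociated enzymatically and not sorted. The first replicates used version 2 of the reagent kit (kit 2) and the second replicates version 3 (kit 3).

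Receptors of this family are tyrosine kinases that pair when a ligand binds and then signal through the RAS, MAP kinase and PI3 kinase cascades. ERBB2 has no known ligand of its own and ERBB3 has little kinase activity, so both work mainly through their partners. The ligands are made as membrane-bound precursors that proteases of the ADAM family release, and most of them bind EGFR, whereas neuregulins bind ERBB3 and ERBB4. In the normal intestine, EGF family ligands come from epithelial and stromal cells and sustain the proliferation of crypt cells.

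Values are given below in a fixed order, first the ApcMin and the VApcMinL library of kit 2 and then those of kit 3. In this order the libraries held 44660305, 49009488, 98714025 and 128247396 UMIs (unique molecular identifiers, that is, counted transcript molecules). From 2146 to 4449 barcodes per library passed the limits of at least 1000 UMIs and at most 20% mitochondrial UMIs. The second limit removed 27.5%, 27.3%, 62.9% and 30.5% of the deeper barcodes, by far the most in ApcMin replicate 2. Classes were gated on the summed UMIs of marker genes that included none of the 10 genes. The epithelial gate held 9713 cells, the immune gate 1769 cells and the fibroblast gate 258 cells, the last with 127, 68, 42 and 21 cells per library. The median fibroblast had between 91.6 and 139 fibroblast marker UMIs per 10000 UMIs, against a median of 0 in epithelial and immune cells, and between 3.76 and 8.37 epithelial marker UMIs, against 114 to 150 in epithelial cells. The libraries of kit 2 shared 18 barcodes, and 1 further barcode was shared between ApcMin replicate 1 and VApcMinL replicate 2. Lef1, the deleted gene, was at 4.83, 10.6, 9.21 and 15.3 CPM (UMIs per 1000000 UMIs) in epithelial cells. In epithelial cells gated on Wnt target and stem cell genes it was at 9.94, 32.0, 39.2 and 24.4 CPM. Across all epithelial cells, VApcMinL therefore had more Lef1 than ApcMin with both kits. Among the gated cells, VApcMinL had more Lef1 than ApcMin with kit 2 and less with kit 3. Counts of 3′ ends need not report a deletion of internal exons. Xist, which is transcribed from the inactive X chromosome, was at 0.104, 779, 0.216 and 284 CPM in all epithelial cells although all mice were labelled male. The libraries are therefore named below by their labels, and a difference between the genotypes cannot be told apart from a difference that goes with Xist.

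Levels are given as CPM, the UMIs of a gene per 1000000 UMIs of its cell class and library. In such sums, fewer expressing cells and fewer transcripts per cell cannot be told apart. Differences are log2 ratios with their standard error (SE) from the quasi-likelihood test of edgeR, with P values adjusted over all genes tested and called at 0.05. Nothing in the labels says that the libraries of a group came from separate animals, so the P values measure the spread between these libraries only.

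**Figure D1:**
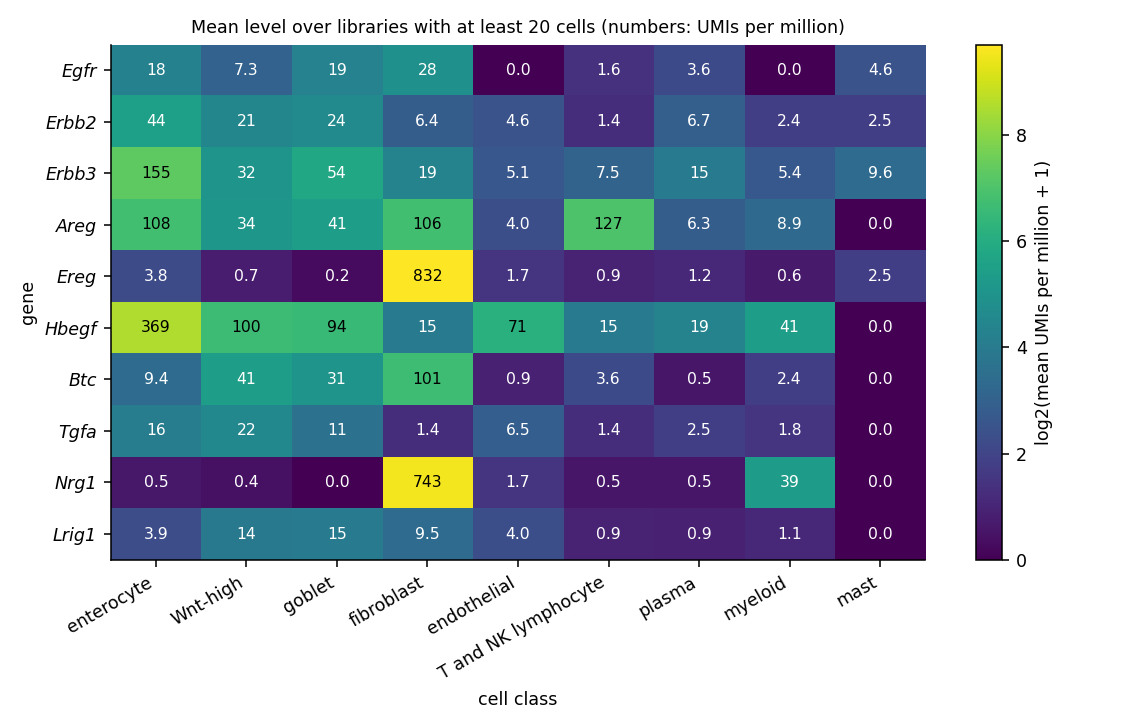
Mean level of each of the 10 genes in 9 marker-gated cell classes, over the libraries with at least 20 cells of the class. Numbers are CPM and the color is log2(mean + 1). Ereg and Nrg1 are brightest in fibroblasts, Erbb3 and Hbegf in enterocytes.

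Of the receptors, Erbb2 and Erbb3 were transcribed mainly in epithelial cells, whereas Egfr was found in epithelial cells and fibroblasts alike. Egfr, the receptor for EGF, amphiregulin and TGFα, was at 11.2, 14.9, 17.5 and 11.3 CPM in epithelial cells. In fibroblasts Egfr was at 28.8, 9.0, 39.0 and 35.6 CPM, from 25, 4, 22 and 7 UMIs. The fibroblast level was above the epithelial one in all libraries except VApcMinL replicate 1. The difference of Egfr, epithelial cells over fibroblasts, was -0.61 on the log2 scale (SE 0.34, 95% interval -1.27 to 0.05, edgeR adjusted p = 0.142) and was not called. Without VApcMinL replicate 1 it was -0.99 with an adjusted p of 0.0219, so that this library decided the call, and with cells thinned to 1000 UMIs it was 0.55 (adjusted p = 0.659). Immune cells had 3.34, 2.09, 3.73 and 0 CPM of Egfr, and all were below the epithelial cells of the same library. Epithelial cells exceeded immune cells by 2.44 (SE 0.42, edgeR adjusted p = 0.000419). Myeloid cells gave 0 UMIs of Egfr in 294 cells.

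Erbb2, the co-receptor without a ligand, was at 28.2, 28.5, 33.3 and 25.5 CPM in epithelial cells. In fibroblasts it was at 9.23, 2.25, 8.87 and 5.09 and in immune cells at 5.0, 2.62, 2.80 and 3.62 CPM. Neither class overlapped with the epithelial range. Erbb2 was 5.42-fold higher in epithelial cells than in fibroblasts (log2 2.44, SE 0.36, edgeR adjusted p = 1.65e-05), and it exceeded the immune level by 2.91 on the log2 scale (SE 0.28).

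Erbb3, the receptor for neuregulins, was at 52.0, 75, 112 and 54.2 CPM in epithelial cells and at 10.3, 8.89, 14.9 and 5.80 in immune cells, without overlap. In fibroblasts it was at 6.92, 4.50, 3.55 and 61.1 CPM. The high value of VApcMinL replicate 2 rested on 12 UMIs, 10 of them in 1 cell, and was 11.0 without that cell. Epithelial cells exceeded fibroblasts 7.82-fold for Erbb3 (log2 2.97, SE 0.51, edgeR adjusted p = 7.97e-05) and exceeded immune cells by 2.80 (SE 0.23). Fibroblasts and immune cells differed by -0.17 (SE 0.63, 95% interval -1.41 to 1.08, adjusted p = 0.850). Without VApcMinL replicate 2 this difference was -1.43 with an adjusted p of 0.0223, so that this library decided the call. Without the 1 cell its fibroblast level rested on 2 UMIs and was still above its immune level, against the direction of the other libraries. No fit was made without that cell. Barcodes of at most 100 UMIs, which hold free RNA and no cell, had 36.6, 47.6, 56.4 and 42.4 CPM of Erbb3. Immune cells were above this in 0 of 4 libraries. Fibroblasts were above it in VApcMinL replicate 2 alone, and there only with that cell. The direction between fibroblasts and immune cells was thus read at levels below free RNA.

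The ligands fell into a stromal set and an epithelial set. Ereg and Nrg1 were nearly confined to fibroblasts in these classes, and Btc was highest there. Hbegf and Tgfa were highest in epithelial cells. Areg had overlapping levels in the 3 classes.

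Ereg encodes epiregulin, which binds EGFR and ERBB4. It was at 708, 292, 1344 and 982 CPM in fibroblasts, at 1.98, 0.80, 2.48 and 0.70 in epithelial cells and at 2.67, 1.57, 0.93 and 1.45 in immune cells. Every fibroblast library was thus far above every library of both other classes. Ereg was 436-fold higher in fibroblasts than in epithelial cells (log2 -8.77 for epithelial over fibroblast, SE 0.35, edgeR adjusted p = 4.39e-13) and 289-fold higher than in immune cells (log2 8.18, SE 0.29). A few cells carried much of this signal. The fibroblast richest in Ereg held 7.0%, 16.2%, 31.9% and 86.5% of the Ereg UMIs of its library, and without these cells the levels were 670, 249, 930 and 138 CPM. All of the libraries then still lay far above the other classes. Barcodes of at most 100 UMIs, which hold free RNA and no cell, had 9.50, 4.87, 5.29 and 3.28 CPM of Ereg. The epithelial and immune levels of Ereg were below this level of free RNA in every library. That does not show that Ereg was absent from these classes, since free RNA makes up only part of a cell's UMIs. Whether they express Ereg at a low level was not tested. Between epithelial and immune cells, Ereg differed by -0.40 (SE 0.54, 95% interval -1.46 to 0.66, adjusted p = 0.551).

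Nrg1 encodes neuregulin 1, the ligand of ERBB3 and ERBB4. It was at 653, 540, 956 and 824 CPM in fibroblasts and at 0.76, 0.28, 0.32 and 0.21 in epithelial cells. No single fibroblast held more than 30.2% of the Nrg1 UMIs of a library, and without the top cells the levels were 622, 521, 878 and 605. The epithelial level rested on 71 UMIs in 9713 cells and was below that of empty barcodes (12.5, 8.12, 7.49 and 3.93 CPM) in every library. Nrg1 was 1611-fold higher in fibroblasts than in epithelial cells (log2 -10.65 for epithelial over fibroblast, SE 0.37, edgeR adjusted p = 8.86e-14). Immune cells had 9.01, 9.42, 7.46 and 11.6 CPM of Nrg1, and fibroblasts exceeded them 57.7-fold (log2 5.85, SE 0.21). Within the immune gate, myeloid cells held 37.6, 45.9, 30.4 and 42.2 CPM, which lay apart from the whole immune class below and from fibroblasts above. After thinning to 1000 UMIs, Nrg1 was detected in 1.65%, 3.80%, 0% and 7.69% of myeloid cells and in 28.3%, 36.8%, 28.6% and 19.0% of fibroblasts.

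Btc encodes betacellulin, which binds EGFR and ERBB4. In fibroblasts it was at 96.9, 101, 85.1 and 122 CPM, in epithelial cells at 33.0, 25.7, 19.7 and 43.8, and in immune cells at 2.33, 0, 0.93 and 4.35. The ranges of the 3 classes did not overlap. Fibroblasts exceeded epithelial cells 2.66-fold for Btc (log2 -1.41 for epithelial over fibroblast, SE 0.21, edgeR adjusted p = 1.30e-05). Without the fibroblast richest in Btc of each library, the fibroblast levels were 89.9, 79.5, 53.1 and 74.8 CPM and still above the epithelial range. Fibroblasts exceeded immune cells 39.8-fold (log2 5.31, SE 0.36), and epithelial cells exceeded immune cells by 4.01 (SE 0.39). Betacellulin was thus the one ligand that the edgeR test called above immune cells in fibroblasts and in epithelial cells.

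Hbegf encodes heparin-binding EGF-like growth factor, a ligand of EGFR and ERBB4. It was at 268, 247, 136 and 101 CPM in epithelial cells, at 24.2, 11.2, 14.2 and 10.2 in fibroblasts and at 25, 22.0, 8.40 and 31.2 in immune cells. The lowest epithelial library was above every fibroblast and immune value, and both kit 2 libraries were above both kit 3 libraries. Hbegf was 15.9-fold higher in epithelial cells than in fibroblasts (log2 3.99, SE 0.28, edgeR adjusted p = 7.68e-10) and exceeded the immune level by 3.05 (SE 0.32). Fibroblasts and immune cells differed by -0.70 (SE 0.33, 95% interval -1.34 to -0.05, edgeR unadjusted p = 0.0505, adjusted p = 0.0918). This was not called, but the difference was -0.92 with an adjusted p of 0.0417 without ApcMin replicate 2. Empty barcodes held 155, 171, 93.2 and 84.3 CPM of Hbegf, so the levels in fibroblasts and immune cells were below that of free RNA. Endothelial cells of the kit 2 libraries had 62.6 and 79.5 CPM of Hbegf.

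Tgfa encodes TGFα, a ligand of EGFR. It was at 15.4, 19.2, 17.4 and 18.5 CPM in epithelial cells and at 1.33, 2.09, 0 and 2.90 in immune cells. In fibroblasts only 3 UMIs were counted in 258 cells, which gave 1.15, 4.50, 0 and 0 CPM. The epithelial range lay above both. The difference of Tgfa was 3.92 between epithelial cells and fibroblasts (SE 0.59, edgeR adjusted p = 1.93e-05) and 3.36 between epithelial and immune cells (SE 0.39).

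Areg encodes amphiregulin, a ligand of EGFR whose gene is known to respond to cyclic AMP. Its promoter is shown because this ligand was the least class-bound of the set and because 2 of the motifs searched lie in it. The windows below are from the plus strand of GRCm38.p6 in RefSeq, with the motif in capitals. The first, at chr5:91139527-91139556, holds the cyclic AMP response element TGACGTCA at 61 to 54 bases before the transcription start. The second, at chr5:91139556-91139585, holds the TATA box TATAAA at 31 to 26 bases before the start.
Areg CRE: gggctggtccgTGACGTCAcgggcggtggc
Areg TATA box: ctccagcgggtcTATAAAagcagcaggtgc

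The promoter table covered 250 bases before to 50 bases after the start. Chromosome 18, which holds Hbegf, was left out of the search. Of the 10 genes, 6 had an entry among the promoters searched (Egfr, Erbb2, Areg, Btc, Tgfa and Lrig1). Among these, Areg alone held the letters TGACGTCA, which 1.79% of all 32851 promoters searched hold on either strand. Areg was also the only one of the 6 with TATAAA, found in 13.6% of all promoters. The AP-1 letters TGAGTCA (5.2% of all promoters) and the TCF/LEF letters CTTTGA (16.0%) were in 0 of the 6 windows. The motifs do not overlap, and such matches describe letters and not bound sites.

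Areg was at 79.1, 75.9, 59.0 and 45.2 CPM in epithelial cells, at 103, 60.7, 63.8 and 198 in fibroblasts and at 66.7, 27.2, 16.8 and 52.9 in immune cells. All of these ranges overlapped. Empty barcodes held 49.8, 48.7, 42.3 and 40.0 CPM of Areg, so that epithelial cells and fibroblasts were above free RNA in 4 of 4 libraries and immune cells in 2 of 4. Of the 39 Areg UMIs in the fibroblasts of VApcMinL replicate 2, 37 were in 1 cell. Without the top cell of each library, the fibroblast levels of Areg were 83.2, 45.6, 29.8 and 10.6 CPM, above free RNA in 1 of 4 libraries. The difference between epithelial cells and fibroblasts was -0.19 (SE 0.30, 95% interval -0.78 to 0.40, edgeR adjusted p = 0.633), with log2 ratios of -0.10, 0.72, 0.37 and -1.79 in the separate libraries. Between epithelial and immune cells it was 0.70 (SE 0.32, 95% interval 0.08 to 1.32, adjusted p = 0.0799), and it was called without ApcMin replicate 1 (log2 0.95) and without VApcMinL replicate 2 (log2 0.99, adjusted p = 0.0449). Fibroblasts exceeded immune cells by 0.91 (SE 0.24, edgeR adjusted p = 0.00498), higher in 4 of 4 libraries by 0.17, 0.75, 1.62 and 1.61. This call was lost when cells were thinned to 1000 UMIs (log2 0.22, adjusted p = 0.697) and when the library was not a block (log2 0.95, adjusted p = 0.145).

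Within the immune gate, Areg was highest in T and NK lymphocytes, at 296, 52.5, 57.7 and 103 CPM, against 1.88, 12.7, 7.61 and 13.2 in myeloid cells. The 2 ranges did not overlap. In ApcMin replicate 1, the 149 Areg UMIs of these lymphocytes came from 28 of 215 cells, with 29 UMIs in the richest cell. Thinned to 1000 UMIs, 8.84%, 2.23%, 4.48% and 5.19% of lymphocytes had an Areg UMI, against 0.826%, 2.53%, 0% and 1.54% of myeloid cells. The lymphocyte share was thus below the myeloid one in VApcMinL replicate 1. Unthinned, the lymphocyte shares were 13%, 4.07%, 10.4% and 7.36%, at median depths of 2024, 2137, 2861 and 2027 UMIs against 3800, 4390, 8089 and 5782 UMIs in myeloid cells. Areg and Hbegf can be induced by dissociation, so the summed level of 13 immediate-early and heat shock genes is given beside them. This sum was 4077, 3735, 3831 and 3720 CPM in epithelial cells, 11634, 7226, 2865 and 3588 in fibroblasts, and 11239, 5023, 7597 and 8305 in T and NK lymphocytes. In lymphocytes and epithelial cells the list and Areg were both highest in ApcMin replicate 1. In fibroblasts the list was highest in ApcMin replicate 1, but Areg in VApcMinL replicate 2. The part of the list in the levels of Areg and Hbegf was not tested.

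Lrig1 encodes a transmembrane protein that lowers the amount of EGF family receptors and marks crypt progenitor cells. It was at 12.9, 11.0, 8.58 and 11.3 CPM in epithelial cells and at 9.23, 4.50, 14.2 and 10.2 in fibroblasts, and these ranges overlapped. Their difference was 0.56 (SE 0.40, 95% interval -0.23 to 1.35, edgeR adjusted p = 0.264). In immune cells it was at 1.67, 1.05, 0 and 0.72 CPM, below every epithelial and fibroblast value. Epithelial cells exceeded them by 3.37 (SE 0.42, adjusted p = 4.04e-05).

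**Figure D2:**
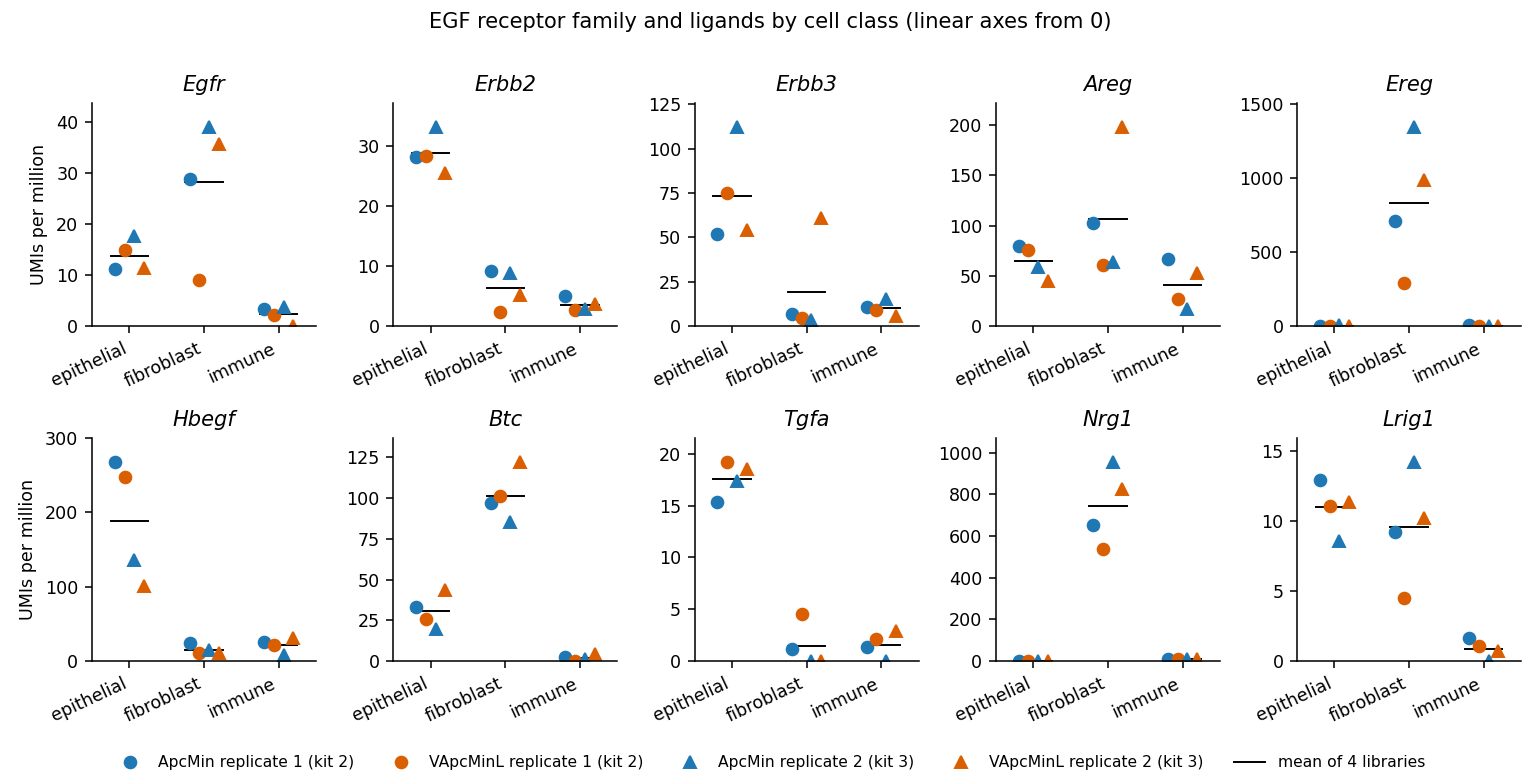
Level of each gene (CPM, linear axes from 0) in epithelial cells, fibroblasts and immune cells. Each point is 1 of the 4 libraries and each line the mean of the 4. Ereg and Nrg1 points of fibroblasts lie far above both other classes, and the single high fibroblast point of Erbb3 and of Areg is VApcMinL replicate 2.

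Counted over the set, 7 of the 10 genes were called between epithelial cells and fibroblasts, where 48.2% of all 14358 genes tested were called. Erbb2, Erbb3, Hbegf and Tgfa were higher in epithelial cells, as were 26.3% of all genes, and Ereg, Btc and Nrg1 were lower, as were 21.9%. Between epithelial and immune cells 8 of the 10 were called, against 55.1% of all genes, 7 of them higher in epithelial cells (30.9% of all genes) and 1, Nrg1, lower (24.2%). The median log2 difference of the set was 0.18 against 0.17 over all genes in the first comparison and 2.85 against 0.14 in the second. Between fibroblasts and immune cells, 7 of the 10 genes passed the filter on low counts and Erbb2, Tgfa and Lrig1 did not. Of the 7, Egfr (log2 2.98, SE 0.50), Areg, Ereg, Btc and Nrg1 were called, all of them higher in fibroblasts. In that comparison 49.7% of all genes were called, 24.6% higher and 25.1% lower. DESeq2 called the same numbers of the set, 7, 8 and 5.

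Within the epithelium, cells gated on 10 Wnt target and stem cell genes (Wnt-high epithelial cells, 3168 cells) were compared with enterocytes gated on 10 absorptive genes (3086 cells). The 3 receptors, Areg, Ereg and Hbegf were higher in enterocytes, whereas Btc and Lrig1 were higher in Wnt-high cells. Wnt-high cells numbered 429, 510, 318 and 1911. Among all epithelial cells, 199, 105, 78 and 548 had a marker score within 20% of the gate, above or below it. The class is thus a range of a score and not a discrete type. Of the 10 genes 8 were called, 2 higher and 6 lower in Wnt-high cells. Of all 13180 genes tested 74.7% were called, 39.6% higher and 35.2% lower, so a call by itself says little here, and the sizes depend on the scaling, as given below. The median log2 difference was -1.86 over the set and 0.11 over all genes.

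Egfr was at 18.1, 17.9, 18.2 and 18 CPM in enterocytes and at 6.89, 6.15, 8.55 and 7.45 in Wnt-high cells. The enterocyte values varied little between libraries and kits, and the difference was 4.01-fold after TMM scaling (log2 -2.0 for Wnt-high over enterocyte, SE 0.15, edgeR adjusted p = 9.33e-06). Erbb2 was at 56.0, 41.8, 41.1 and 36.2 against 18, 19.4, 22.9 and 24.4 CPM, 3.27-fold higher in enterocytes (log2 -1.71, SE 0.16). Erbb3 had the largest difference of the receptors, with 162, 163, 165 and 129 CPM in enterocytes and 28.7, 21.4, 38.6 and 37.4 in Wnt-high cells (log2 -3.00, SE 0.20, edgeR adjusted p = 4.48e-06). None of the 3 receptors overlapped between the classes, in a comparison in which 74.7% of all genes tested were called. In Wnt-high cells Erbb3 was below the level of empty barcodes in every library (36.6, 47.6, 56.4 and 42.4 CPM), and Egfr and Erbb2 were above theirs in 1 of 4 libraries each, whereas all 3 were above it in enterocytes in 4 of 4. A level below that of empty barcodes does not show that a receptor was absent, since free RNA makes up only part of a cell's UMIs. Nrg1, nearly confined to fibroblasts, was at 0.69, 0.28, 0.41 and 0.072 CPM in Wnt-high cells. In empty barcodes it was at 12.5, 8.12, 7.49 and 3.93 CPM. How much of the receptor levels of Wnt-high cells was free RNA was not tested. Thinned to 1000 UMIs, Erbb3 was detected in 15.3%, 13.7%, 17.1% and 13.8% of enterocytes and in 3.50%, 1.57%, 4.4% and 3.30% of Wnt-high cells, the latter at levels below free RNA as given above.

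Hbegf was at 626, 447, 200.4 and 202 CPM in enterocytes and 182, 80.9, 60.5 and 78.7 in Wnt-high cells. It was higher in enterocytes in each library and 5.70-fold higher in the fit (log2 -2.51, SE 0.20, edgeR adjusted p = 1.37e-05). Areg was at 189, 120, 72.6 and 49.7 CPM in enterocytes and 49.6, 27.4, 26.2 and 33.6 in Wnt-high cells (log2 -2.20, SE 0.25). For both of these ligands the kit 2 libraries were highest in enterocytes, where all 4 libraries were above free RNA. In Wnt-high cells Areg was above it in 0 and Hbegf in 1 of 4 libraries. The immediate-early list was at 4378, 4429, 4142 and 3961 CPM in enterocytes and 4362, 3384, 3740 and 3771 in Wnt-high cells, which is a smaller difference than that of either ligand, and its part in them was not tested. Ereg was at no more than 6.87 CPM in either class and below the empty barcodes of every library (log2 -3.28, SE 0.50, edgeR adjusted p = 0.000416). Tgfa was at 18.1, 20.2, 14.0 and 13.4 in enterocytes and 18.4, 23.4, 26.8 and 19.96 in Wnt-high cells. Its difference of -0.23 (SE 0.15, 95% interval -0.52 to 0.05, adjusted p = 0.176) turned to 0.45 with an adjusted p of 0.048 when libraries were scaled by their totals alone. Nrg1 was not called (log2 -1.33, SE 1.01, 95% interval -3.32 to 0.65).

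Btc was higher in Wnt-high cells. It was at 40.6, 37.3, 39.4 and 47.7 CPM in Wnt-high cells and 10.4, 9.39, 6.28 and 11.4 in enterocytes, without overlap, a 2.81-fold difference (log2 1.49, SE 0.14, edgeR adjusted p = 3.06e-05). Thinned, it was detected in 4.66%, 2.55%, 3.14% and 5.13% of Wnt-high cells and 0.806%, 1.25%, 0.836% and 1.07% of enterocytes. Btc and Lrig1 were above free RNA in 4 of 4 libraries in Wnt-high cells and in 0 of 4 in enterocytes. Lrig1 was at 14.1, 14.2, 14.9 and 13.2 CPM in Wnt-high cells and 5.22, 2.61, 3.19 and 4.78 in enterocytes (log2 1.2, SE 0.21, edgeR adjusted p = 0.00103). Goblet cells matched the Wnt-high level of Lrig1, at 14.3, 16.7, 16.1 and 14.3 CPM, and the 2 ranges overlapped. Scaling by library totals moved the median of all genes by 0.69 in this comparison, and the 8 called genes of the set kept their direction and their call under it. The sizes moved with it. Egfr went from -2.0 to -1.32, Erbb2 to -1.02, Erbb3 to -2.31, Areg to -1.52, Ereg to -2.61, Hbegf to -1.83, Btc to 2.18 and Lrig1 to 1.90, which are nearer to the ratios of the levels printed above.

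**Figure D3:**
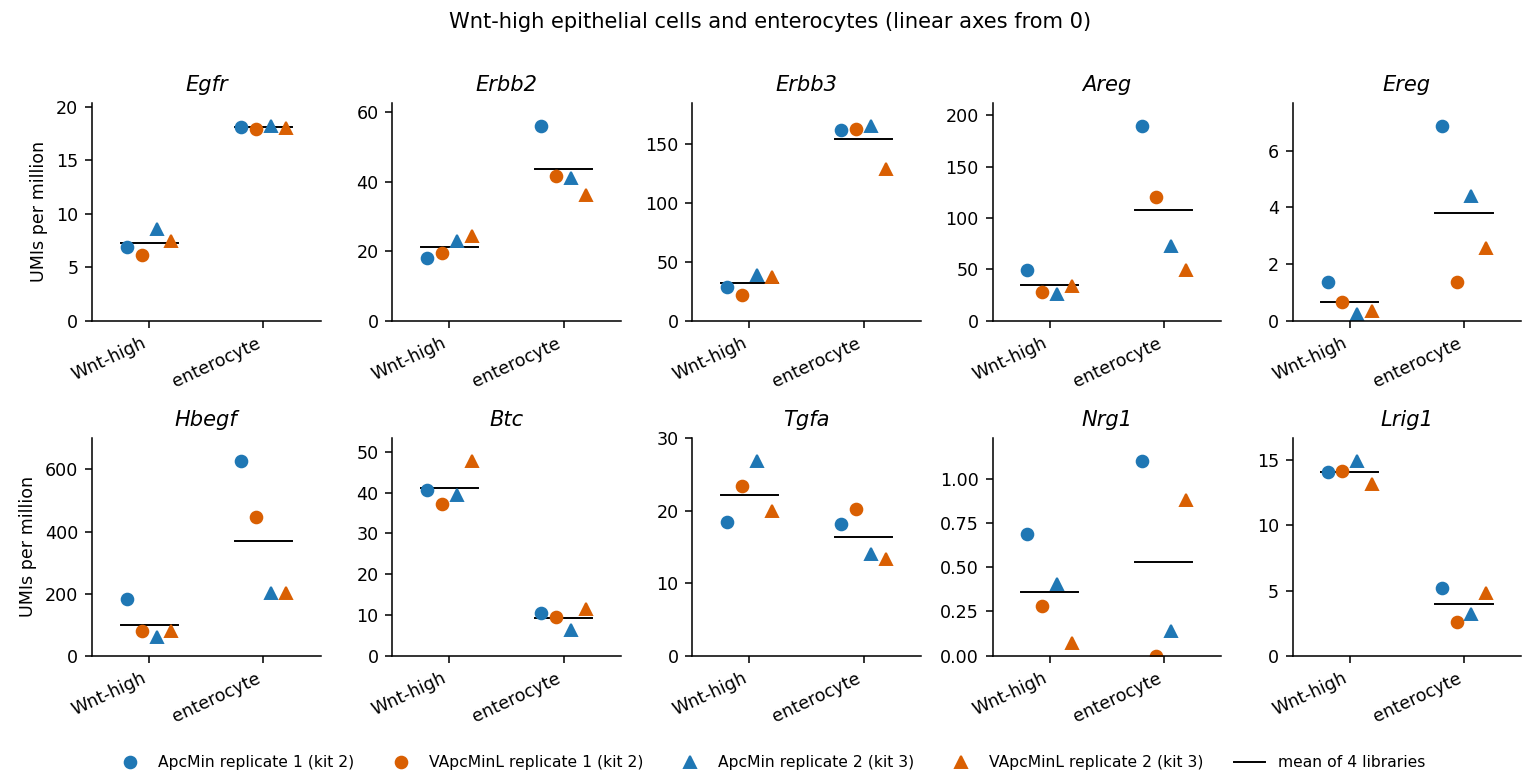
Level of each gene (CPM, linear axes from 0) in Wnt-high epithelial cells and enterocytes, with 1 point per library and a line at the mean of the 4. The points of Egfr, Erbb2, Erbb3, Btc and Lrig1 separate widely, with Btc and Lrig1 higher in Wnt-high cells, whereas those of Areg and Hbegf nearly touch.

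Nrg1 was detected more often in fibroblasts with Ereg than in those without. Of the 258 fibroblasts 129 had an Ereg UMI, and Nrg1 was detected in 79.8% of them against 26.4% of the 129 without Ereg. Thinned to 1000 UMIs, the shares were 52.9% of 68 cells and 21.6% of 190 cells. In the separate libraries the thinned shares were 52.5%, 50%, 50% and 100% against 17.2%, 33.3%, 20% and 10.5%, so the direction was the same in each, with 2 cells behind the value of 100%. Areg was detected in 33.3% of fibroblasts with Ereg and in 3.88% of those without, and in 14.7% and 3.16% after thinning. For Btc the shares were 47.3% and 20.9% as deposited but 10.3% and 8.42% after thinning. The cells richest in Ereg held 43, 21, 242 and 167 Ereg UMIs beside 36, 16, 41 and 36 Nrg1 UMIs. The cell of VApcMinL replicate 2 also held 37 Areg UMIs among 8171 UMIs in all. These cells are members of 4 libraries and no test was made across them.

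**Figure D4:**
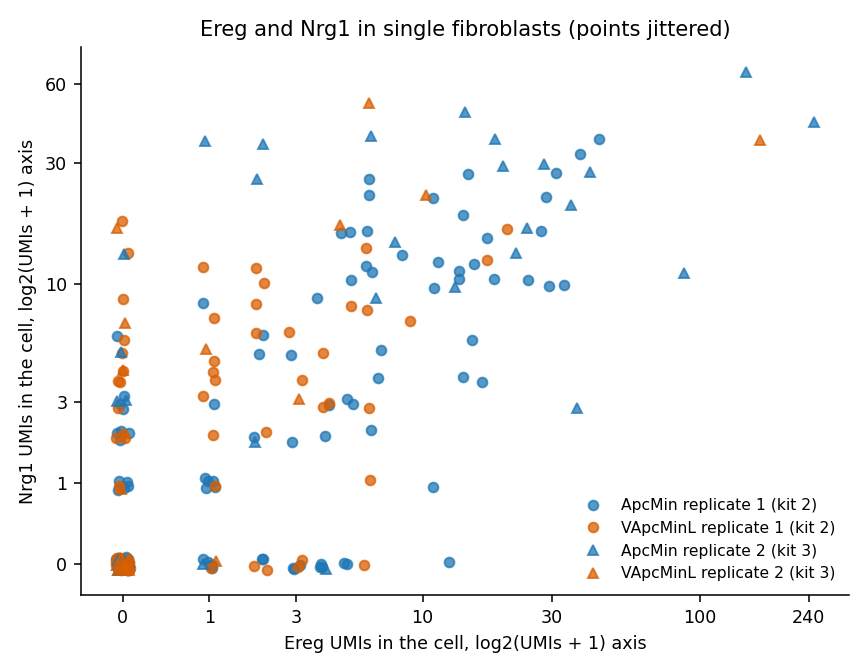
Ereg UMIs (horizontal axis) and Nrg1 UMIs (vertical axis) in each of the 258 fibroblasts, both on a log2(UMIs + 1) scale with jitter, colored by genotype label and shaped by kit. Cells with many Ereg UMIs also have Nrg1 UMIs, and the cell farthest to the right has 242 Ereg and 41 Nrg1 UMIs.

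In epithelial cells, Hbegf was detected more often in cells with Areg than in those without. Thinned to 1000 UMIs, Hbegf was present in 40.5%, 37.5%, 23.9% and 15.2% of cells with an Areg UMI and in 20.3%, 20.8%, 12.1% and 9.72% of cells without one. Both were also higher in enterocytes than in Wnt-high cells, and the classes were not separated in these shares.

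Between the genotypes, none of the 10 genes was called in any class, and the spread between the kit pairs was wide. In epithelial cells edgeR called 0 of 14567 genes, 0% higher and 0% lower, with 32 genes at an unadjusted p under 0.05, while DESeq2 called 6 genes and none of the set. Xist, at 0.104, 779, 0.216 and 284 CPM in these cells, was thus not called by edgeR either. For Lef1 the log2 difference, VApcMinL over ApcMin, was 0.86 (SE 0.41, edgeR unadjusted p = 0.0872) and was not called. A gene that edgeR did not call here need not be unchanged. The log2 differences of the 10 genes, VApcMinL over ApcMin, ran from -1.64 to 0.33, with SEs from 0.36 to 0.73. Egfr differed by -0.18 (95% interval -1.09 to 0.72), Erbb2 by -0.25 (-0.98 to 0.48) and Erbb3 by -0.33 (-1.38 to 0.72). Within the kit 2 and the kit 3 pair, Erbb3 differed by 0.54 and -1.2 and Egfr by 0.42 and -0.79, so the values went in opposite directions in the 2 pairs. The makeup of the epithelial gate moved with them. Enterocytes made up 372 of 1692, 886 of 2207, 1077 of 1864 and 751 of 3950 epithelial cells and Wnt-high cells 429, 510, 318 and 1911, so that the share of enterocytes was higher in VApcMinL of kit 2 and lower in VApcMinL of kit 3. Among enterocytes alone Egfr differed by -0.066 (SE 0.25), Erbb2 by -0.35 (SE 0.22) and Erbb3 by -0.23 (SE 0.27), and among Wnt-high cells alone by -0.19 (SE 0.30), 0.091 (SE 0.20) and -0.24 (SE 0.23), with none called in either. Among the ligands, Areg (log2 -0.29), Hbegf (-0.34), Ereg (-1.64) and Nrg1 (-1.08) were lower in the library labelled VApcMinL of both pairs, the last 2 at levels below free RNA. Ereg had the smallest unadjusted p of the set (0.0423, edgeR adjusted p = 1.00). Btc differed by -0.35 in the kit 2 and 1.00 in the kit 3 pair, and Lrig1 by -0.22 and 0.25. The intervals do not exclude differences of more than 1.5-fold for any of the 10 genes.

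In fibroblasts edgeR called 1 of 6870 genes (0.0146%, higher), with 218 genes at an unadjusted p under 0.05 and 3 genes called by DESeq2. Of the set 5 genes passed the filter and none was called by either tool. Ereg was lower in the library labelled VApcMinL of both pairs (log2 -1.35 and -0.44), for a difference of -0.89 (SE 0.28, unadjusted p = 0.0137, edgeR adjusted p = 1.00). The Ereg level of VApcMinL replicate 2 rested on 1 cell, as given above. Nrg1 differed by -0.27 (SE 0.23, 95% interval -0.73 to 0.18), Btc by 0.23 (-0.34 to 0.81) and Egfr by -0.88 (-1.93 to 0.18). Areg differed by -0.83 in the kit 2 and 1.65 in the kit 3 pair. In immune cells edgeR called 1 of 9494 genes (0.0105%, higher), with 555 genes at an unadjusted p under 0.05 and 19 called by DESeq2. None of the 4 genes of the set that were tested was called by either tool. Areg and Hbegf changed direction between the pairs, with -1.42 and 1.62 for Areg and -0.31 and 1.85 for Hbegf. Erbb3 was lower in both (-0.34 and -1.40, edgeR adjusted p = 0.871), and Nrg1 differed by 0.20 (SE 0.38). Of these immune levels, those of Erbb3 and Hbegf were above free RNA in 0 of 4 libraries and those of Areg and Nrg1 in 2 of 4.

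**Figure D5:**
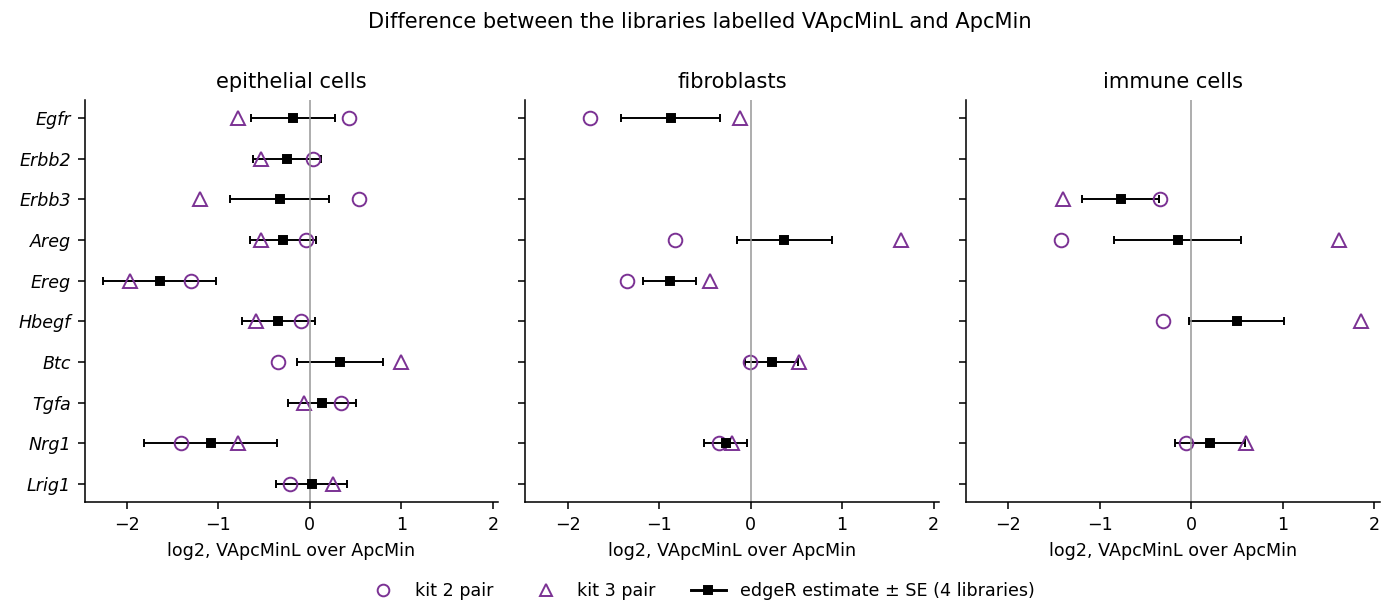
Log2 difference of each tested gene between the libraries labelled VApcMinL and ApcMin, in epithelial cells, fibroblasts and immune cells. Open symbols are the kit 2 and kit 3 pairs, squares the edgeR estimate with its SE over 4 libraries. The pairs lie on opposite sides of 0 for Erbb3 and Btc in epithelial cells and for Areg in fibroblasts and immune cells.

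The pathway around these genes was followed with a list of 49 further genes, chosen by role. Between epithelial cells and fibroblasts 13 of 46 tested were higher and 15 lower, where 26.3% and 21.9% of all genes were. Between epithelial and immune cells they were 20 and 11 of 46, beside 30.9% and 24.2% of all genes, and between fibroblasts and immune cells 18 and 9 of 40, beside 24.6% and 25.1%. Among the other ligands, Epgn, which encodes epigen, was found with 28 UMIs in fibroblasts and none in immune cells (epithelial over fibroblast log2 -6.22, SE 0.84). Nrg4 was at 5.56, 4.27, 3.92 and 5.61 CPM in epithelial cells with 0 UMIs in fibroblasts, the reverse of Nrg1. Erbb4 and Nrg3 had 0 UMIs in the 3 classes. Of the feedback inhibitors, Spry4 was at 88.8, 51.7, 112 and 158 CPM in fibroblasts, far above both other classes (fibroblast over immune log2 6.85, SE 0.36, edgeR adjusted p = 1.86e-10), and Spry1 followed (log2 4.77, SE 0.39). Phlda1, a target of the MAP kinase cascade, was at 1714, 1321, 670 and 763 CPM in fibroblasts (log2 4.02, SE 0.21), and Nedd4, a ubiquitin ligase gene, at 397, 400, 885 and 728 (log2 3.69, SE 0.18). Dusp5, which encodes an ERK phosphatase, was lower in fibroblasts than in immune cells (log2 -3.91, SE 0.32).

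Between Wnt-high cells and enterocytes, 12 of 44 tested pathway genes were higher and 19 lower in Wnt-high cells, beside 39.6% and 35.2% of all genes. Of the 6 transcriptional targets 4 were higher and 1 lower, too few to set against these shares. Etv5, an ETS family transcription factor gene, was at 55.4, 94.7, 100.5 and 47.7 CPM in Wnt-high cells and 2.75, 4.8, 2.20 and 5.81 in enterocytes (log2 3.57, SE 0.34, edgeR adjusted p = 3.49e-05). Its relative Etv4 was at 32.2, 28.9, 25.7 and 27.1 against 4.39, 1.56, 0.67 and 4.78 CPM (log2 2.94, SE 0.39). Dusp5 (log2 -3.54, SE 0.28) and Lrig3, a relative of Lrig1 (log2 -3.70, SE 0.39), were higher in enterocytes. Lrig3 was at 12.4, 8.13, 16.8 and 19.4 CPM in enterocytes and 0.39, 1.89, 4.16 and 1.45 in Wnt-high cells, the reverse of Lrig1. Of the 8 adaptor and ubiquitin ligase genes, 2 were higher, Nedd4 among them (log2 2.38, SE 0.20), and 6 lower. Between the genotypes edgeR called 0 of the 46, 34 and 36 pathway genes tested in epithelial cells, fibroblasts and immune cells, with 0, 2 and 2 at an unadjusted p under 0.05.

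In the mouse genome (GRCm38), the genes of 3 ligands of the set lie side by side on chromosome 5, with Epgn before them. Ereg lies at chr5:91074622-91093646 and Areg at chr5:91139599-91148432, both on the plus strand, and Btc at chr5:91357261-91402994 on the minus strand. The stretch from Epgn to Btc spans 375.5 kb, and the gap between Ereg and Areg is 46 kb, although their levels differed as given above. Egfr (chr11:16752203-16918158) and Erbb2 (chr11:98412470-98437716) are on the plus strand of chromosome 11, and Erbb3 (chr10:128567523-128589652) is on the minus strand. Tgfa (chr6:86195223-86275719, plus strand) and Lrig1 (chr6:94604529-94700158, minus strand) share chromosome 6. Nrg1 is at chr8:31814551-32884029 and Hbegf at chr18:36504927-36515805, both on the minus strand.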

How the data were processed

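The authors deposited raw counts, that is, whole UMI counts per gene and barcode for every barcode of the 4 libraries. The submitters' processing notes name Cell Ranger 2.1.1, Seurat 3.1.1 and mm10 (GRCm38). The kit 3 gene tables list other genes than the kit 2 tables, so the 27514 shared genes were used, which left out 0.192% to 0.568% of the UMIs. Barcodes with at least 1000 UMIs and at most 20% mitochondrial UMIs were gated on marker UMIs per 10000 UMIs (epithelial 40, fibroblast 20, immune 20, enterocyte 100, Wnt-high 4 with at least 3 of its markers detected). The gates were set after the marker distributions had been seen. Barcodes gated for 2 lineages (12 to 54 per library) were removed, and no doublet caller was run. The genes, the pathway list and the tests were chosen with earlier results of these data known. Named pathway genes are, per comparison, the 5 largest differences among genes called with the same direction in each library.

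UMIs were summed per library and class, since cells are not replicates, and tested with edgeR 4.0.16 in R 4.3.3 (TMM scaling, expression filter with a minimum count of 10, Benjamini-Hochberg adjustment). Class comparisons had the library as a block and used libraries with at least 20 cells of both classes. Genotype comparisons had the kit as a block, which the labels pair with the replicate number. Deviations from the group means correlated within a kit at r = 0.171 in epithelial cells (14567 genes), 0.485 in fibroblasts (6870 genes) and 0.469 in immune cells (9494 genes). Intervals of log2 differences are the estimate ± 1.96 SE. With so few libraries they are narrower than the edgeR test allows, so they are approximate and calls rest on the P values. The test was also run on counts simulated at a single fixed dispersion, with no difference between kits or libraries other than depth. That run does not show how the test behaves on the spread of these libraries. DESeq2 1.42.0, RLE and total-count scaling, no filter, other limits on UMIs and mitochondrial share, a stricter gate, thinning and leaving out each library were alternatives. Total-count scaling was added after seeing the data. A count of 0 allows up to 3 UMIs, for counting error only.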

Additional observations from a re-analysis of the deposited data

Results flagged for a closer look

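Of 29 sets of 4 library differences between classes, 2 had a value far from the other libraries, by the 95% critical value of Dixon's test of the gap to the nearest value over the range, and chance gives about 1 in 20. The epithelial over fibroblast difference of Hbegf was 4.85 in VApcMinL replicate 1 (gap over range 0.922), against 3.65 to 3.74 in the other libraries. The epithelial over immune difference of Ereg was 1.59 in ApcMin replicate 2 (gap over range 0.857), against -1.04 to -0.66 in the others, and both classes were below the Ereg level of empty barcodes there.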

How the results depend on the processing

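Depth limited these results. With 21 to 127 fibroblasts per library, 3 UMIs of Tgfa were all that was counted in that class, and thinning to 1000 UMIs reduced the genes called between epithelial cells and fibroblasts from 6925 to 3190, between epithelial and immune cells from 8081 to 5374, between fibroblasts and immune cells from 5096 to 1766 and between Wnt-high cells and enterocytes from 9852 to 5434. Without the library block, fibroblasts against immune cells gave 3233 genes. In that comparison 3 genes of the set were called in place of 5 when thinned and 3 without the library block, since Areg lost its call and Egfr did not pass the filter. Fibroblast comparisons with a limit of 10% mitochondrial UMIs or the stricter gate used 3 libraries.

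For the genotypes, genes called in epithelial cells were 6 with DESeq2, 2 without a filter, 2 with scaling by totals and 3 when thinned. In fibroblasts they were 3 with DESeq2, 38 without a filter, 4 by totals, 2 at 10% mitochondrial UMIs and 0 with no replicate block, and 4 to 20 when a library was left out, which also dropped the kit term. In immune cells they were 19 with DESeq2, 84 without a filter, 0 with no replicate block and 1 to 40 when a library was left out. Genes of the set called stayed at 0 in all of these. Without the replicate block the Lrig1 difference in epithelial cells was -0.013.

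Of 243 genotype values under other settings 229 kept their direction and side of the threshold and 14 reversed. In epithelial cells these were Erbb2 (0.091 in Wnt-high cells only), Tgfa (-0.098 thinned, -0.053 in Wnt-high cells only, -0.012 in enterocytes only), Nrg1 (0.13 in enterocytes only) and Lrig1 (-0.015 with RLE and with DESeq2, -0.12 at 10% mitochondrial UMIs, -0.073 thinned, -0.091 in Wnt-high cells only, -0.19 in enterocytes only). In immune cells they were Areg (0.057 with DESeq2) and Hbegf (-0.16 thinned). Leaving out a library gave, in epithelial cells, ranges of -0.57 to 0.16 for Egfr, -0.84 to 0.25 for Erbb3, -0.84 to 0.17 for Areg, -1.24 to 0.34 for Hbegf, -0.032 to 0.72 for Btc, -0.047 to 0.26 for Tgfa and -0.29 to 0.31 for Lrig1. In fibroblasts Areg ran from -0.48 to 1.13. In immune cells Areg ran from -1.01 to 1.29, Hbegf from -0.17 to 1.71 and Nrg1 from -0.025 to 0.56.

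Of 429 class values under other settings 413 kept their direction and side, 2 lost and 7 gained a call and 7 reversed. Reversed were Egfr (0.55 thinned) and Areg (0.47 with the stricter gate, 0.17 thinned) between epithelial cells and fibroblasts, Lef1 (-0.57 thinned) between epithelial and immune cells, Erbb3 (0.21 by totals) between fibroblasts and immune cells, and Tgfa (0.45 by totals, 0.081 thinned) between Wnt-high cells and enterocytes. Without 1 library, Areg ran from -0.49 to 0.33 between epithelial cells and fibroblasts and Erbb3 from -1.43 to 0.35 between fibroblasts and immune cells. Calls were gained for Egfr between epithelial cells and fibroblasts (-0.99 without VApcMinL replicate 1 and by totals), for Hbegf between fibroblasts and immune cells without ApcMin replicate 2 (-0.92, adjusted p = 0.0417), and for Areg between epithelial and immune cells, where the values under all settings ran from 0.12 to 0.99. Scaling by totals moved the median of all genes by -0.37 between epithelial cells and fibroblasts and by 0.38 between fibroblasts and immune cells. The share of calls that were higher went from 54.6% to 39.0%, from 49.6% to 68.5% and, between Wnt-high cells and enterocytes, from 52.9% to 73.2%. The causes were not tested.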

Other observations

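Outside the main classes, goblet cells had 43.0, 46.7, 67.8 and 57.5 CPM of Erbb3 and 15.5, 28.4, 43.0 and 38.0 of Btc, between the levels of enterocytes and Wnt-high cells for Erbb3. Their Egfr level ran from 3.58 to 39.3 CPM, and Nrg1 had 0 UMIs in them. Endothelial cells of the kit 2 libraries had 0 UMIs of Egfr in 189 cells.

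The genes whose pattern was most like each of the 10 were sought over 43 sums of library and class, in 14 overlapping classes, among 6203 genes. The sums share libraries and cells, so the coefficients describe them and carry no test. Nrg1 was most like Inhba (r = 0.974), Cxcl14 and Mmp2, and Ereg most like Col6a3 (r = 0.951), Col5a1 and Rarres2, which are genes of secreted or matrix proteins known from fibroblasts. Btc was most like Fhl2 (r = 0.900), Snhg18 and Foxq1. Erbb3 was most like Tmem45b (r = 0.902), Ppp1r14d and Atp5g3. Tgfa was most like Urah, Krt19 and Krt7, Hbegf most like Prelid1, Gsto1 and Gdpd1, and Erbb2 most like Sel1l3, Cyc1 and C77080. Lrig1 was most like Csrp2, Dag1 and Mrpl38 and Egfr most like Slc6a8, Fat1 and Tpm1. Areg had the lowest top coefficient of the set, with Abcb1a (r = 0.747), Stk39 and Ndfip2.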
